A study of Homo sapiens with 24 samples.

Results

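Transcripts of 60 genes of mitosis and the G2/M transition were examined after knockdown of PRKCQ, the gene of protein kinase C theta, in the cutaneous T cell lymphoma lines MyLa, from mycosis fungoides, and HuT 78, from Sézary syndrome. The genes were taken by symbol from the list of mitotic kinases, spindle, kinetochore, cytokinesis and condensin genes, and all 60 were present among the 58780 genes of the TPA table and the 13025 genes of the DMSO table. The groups were MyLa and HuT 78 shPRKCQ cells with TPA, NTC (non-targeting control) cells with TPA, shPRKCQ cells with DMSO and NTC cells with DMSO, with 3 libraries for each line in each group. TPA, an activator of protein kinase C enzymes, was given at 10 ng/ml for 24 h and DMSO is its vehicle. The shPRKCQ cells had at least 72 h in 1 µg/ml doxycycline beforehand. Whether NTC cells also received doxycycline, and how many hairpins or clones were used, is not stated; if they did not, hairpin and drug cannot be told apart. Each fold change covers both lines together, 6 shPRKCQ with 6 NTC libraries, so a difference between the lines would not be visible. No value per library was used, so depth is unknown and the error of each value is the standard error implied by the authors' fold change and p-value.

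Entry into mitosis is driven by the kinase CDK1 bound to A- and B-type cyclins. Aurora, Polo and checkpoint kinases then direct spindle assembly, attachment of kinetochores and separation of chromatids, and a contractile ring divides the cell. Transcripts of these genes accumulate in late S phase and G2, mainly through the MuvB complex with B-MYB and FOXM1, and are held down in resting cells by MuvB with pocket proteins. Their summed level in a culture therefore follows the share of cells in G2 and mitosis, and in bulk RNA fewer such cells and less RNA per cell cannot be told apart.

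The knockdown itself was deep in both treatments. In the authors' deposited tables PRKCQ was at a log2 fold change of -2.08 with TPA and -2.11 with DMSO, or 23.7% and 23.1% of the NTC level (the authors' adjusted p = 1.67e-15 and 5.61e-14). The tables do not state their direction, so a negative value is read as lower in shPRKCQ cells because PRKCQ is negative in both. Levels are not in these tables, so the T cell identity of the lines could not be checked. Of 11 T cell markers, 10 had a p-value with TPA and 4 with DMSO, and none passed. No marker of B cells (7 tested with TPA and 2 with DMSO), myeloid cells (7 and 1) or epithelial and stromal cells (8 and 2) passed either. At an unadjusted p under 0.05 with TPA, 1 T cell marker was higher (CD5), 1 B cell marker lower (CD79B), and 1 stromal marker lower and 2 epithelial or stromal markers higher (PDGFRB lower, COL1A2 and KRT5 higher); with DMSO none was. These are 5 of the 28 markers with an adjusted p, 17.9%, against 3.99% of all genes. With TPA 9 of 10 T cell markers were above 0, with a median of 0.16, and so were 6 of 7 myeloid markers (median 0.10), 4 of 7 B cell markers (median 0.0075) and 5 of 8 epithelial and stromal markers (median 0.071). Of all genes with a p-value with TPA, 19852 of 34024 were above 0, with a median of 0.00054. With DMSO 1 of 4 T cell markers was above 0, against 52.3% of genes, with a median of -0.058. The median T cell marker value with TPA was thus about as far above 0 as that of the mitotic genes was below it (-0.15). The part of these shifts in the results was not tested.

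None of the 60 mitotic genes changed past the threshold in either treatment. With the authors' adjusted p held under 0.05, 0 of 60 were called with TPA, where 0.113% of 19417 genes were, and 0 of 60 with DMSO, where 0.108% of 13007 genes were. At an unadjusted p under 0.05 the counts were also 0 of 60, against 3.99% of genes with TPA and 3.04% with DMSO. The smallest unadjusted p was 0.0569 with TPA, for KIF15, and 0.298 with DMSO, for AURKA. What the tables give is therefore a bound. The 95% interval, computed from the implied standard error, held 0 for all 60 genes in both treatments and lay within 1 of 0 on the log2 scale for all 60. The lowest bound with TPA was -0.91, for KIF15, and the highest bound with DMSO was 0.86, for CDC20. The intervals are on the scale of the deposited fold changes. With TPA 2910 genes share one deposited fold change and with DMSO at most 2 do. The TPA table gives 34085 fold changes and the DMSO table holds 13025 genes, so these counts do not compare the scales. Over the genes in both tables, the robust spread of the DMSO fold changes was 0.993 times that with TPA. Whether the authors shrank the values, and did so alike in both tables, is not stated.

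**Figure D1:**
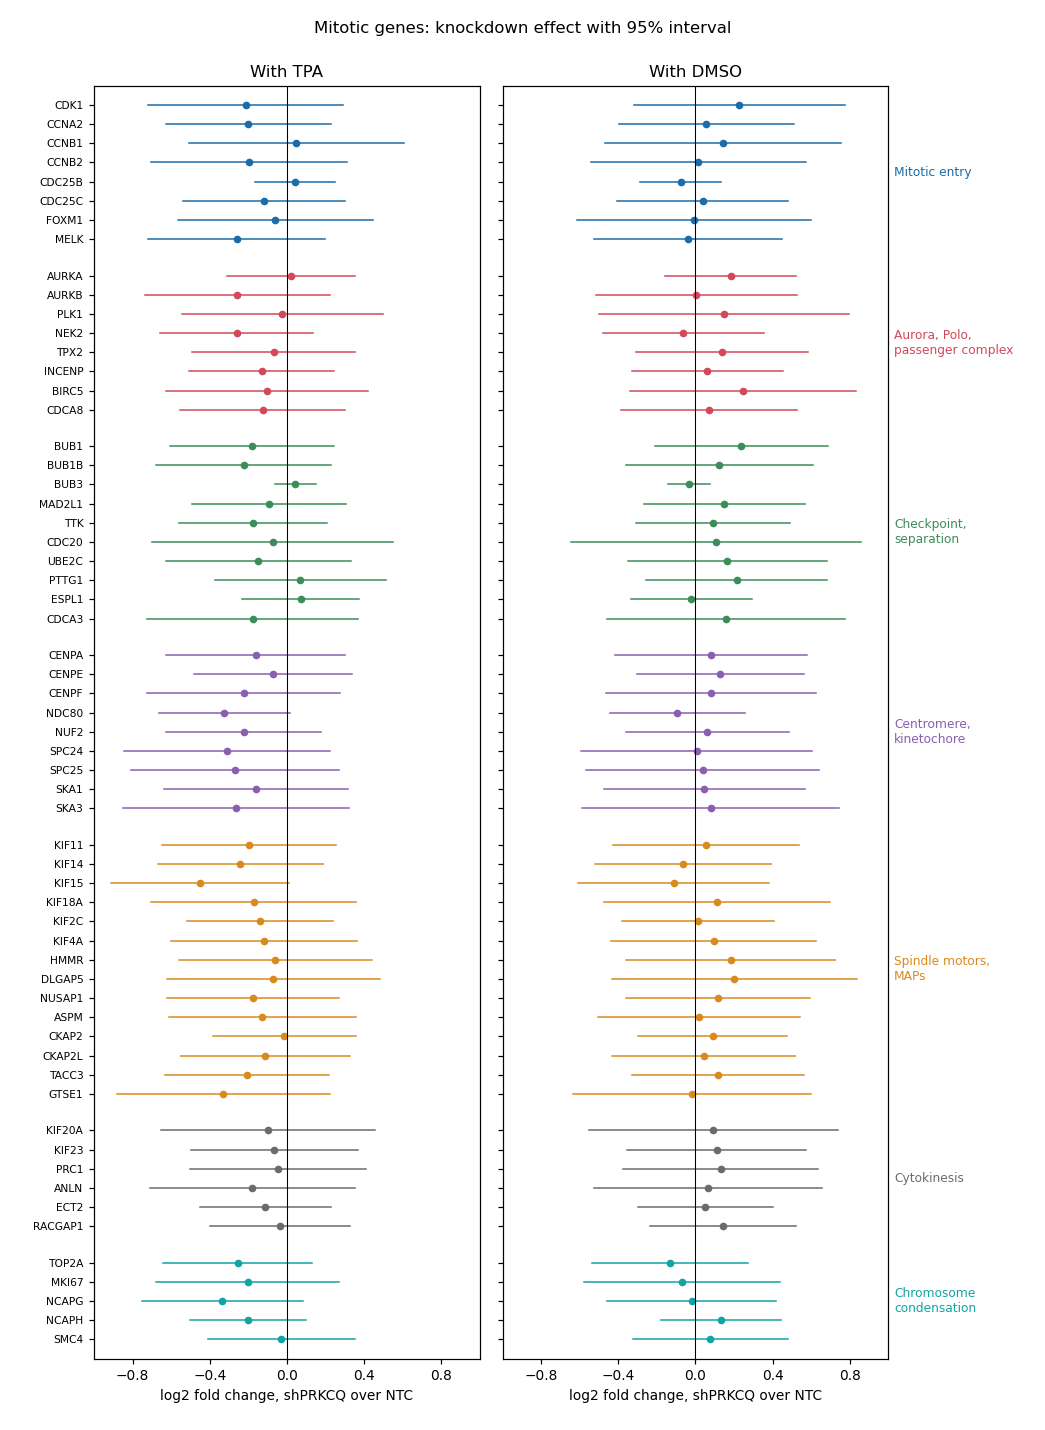
Log2 fold change of shPRKCQ over NTC cells (horizontal axis) for each of the 60 genes, with TPA at left and DMSO at right. Points are the authors' deposited values, lines are 95% intervals from the implied standard error, and colours are role groups. All 120 intervals hold 0, while most points lie left of 0 with TPA and right of 0 with DMSO.

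The small values nevertheless leaned in opposite directions in the 2 treatments. With TPA 54 of the 60 genes were below 0, against 49.3% of the 13007 genes in both tables, and the median was -0.15 on the log2 scale, against 0.0017 over those genes. With DMSO 47 of the 60 were above 0, against 52.3% of genes, and the median was 0.078, against 0.0075. Genes below 0 with TPA and above 0 with DMSO numbered 44 of 60, against 18.7%. The reverse, above 0 with TPA and below 0 with DMSO, was seen for 3 of 60, against 17.1%. At or below -0.2 with TPA were 20 of 60, against 8.69%, and at or above 0.1 with DMSO 23 of 60, against 23.1%, cut-offs chosen after the values were seen, as were the -0.2 and 0.2 used further on. Since the genes share libraries and vary together, these counts are not 60 separate observations, and no test was made of them.

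**Figure D2:**
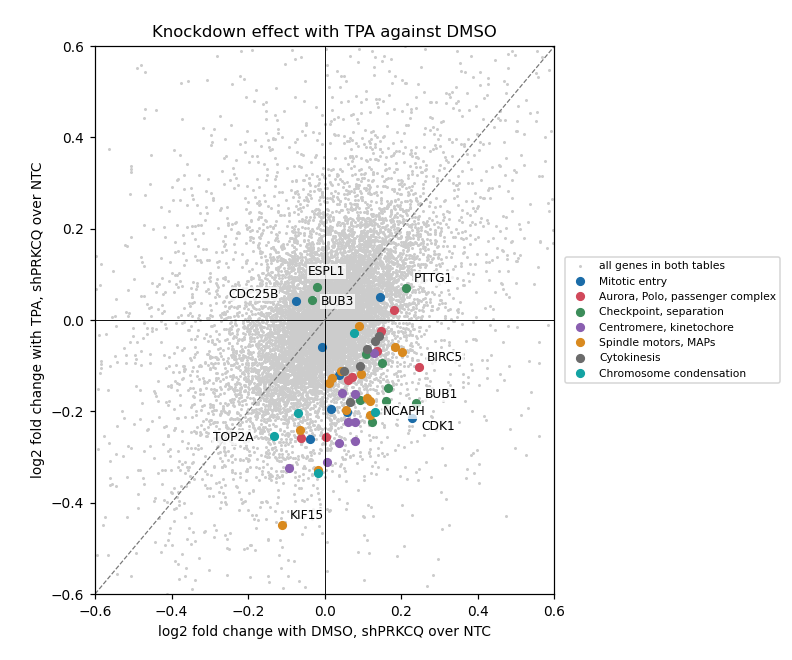
Log2 fold change of shPRKCQ over NTC with TPA (vertical axis) against DMSO (horizontal axis). Grey points are the 13007 genes in both tables (those beyond 0.6 are outside the axes), coloured points are the 60 mitotic genes by role, and the dashed line marks equal values. The mitotic genes lie mostly at lower right, where 44 of 60 fall, and KIF15 is the lowest of them at -0.45.

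The knockdown effect was then compared between treatments gene by gene, as TPA minus DMSO. In 57 of the 60 genes the difference was below 0, against 52.5% of 13007 genes, and 33 of 60 were at or below -0.2, against 9.23%. The median difference was -0.21, where that of all genes was -0.0084. No mitotic gene passed the test of the difference (0 of 13007 genes, 0.0%, passed over the whole table), and 0 of 60 reached an unadjusted p under 0.05, which 0.438% of genes did. The test takes the errors of the tables as independent, and its z-values over all genes had a robust SD of 0.581, where a value of 1 would be the standard normal spread. NCAPH had the smallest p of the 60, with a difference of -0.33, a 95% interval of -0.77 to 0.098 and an unadjusted p of 0.130. The 3 genes with a difference above 0 were CDC25B, BUB3 and ESPL1. Genes of DNA replication and S phase had nearly the same median difference, -0.21 over 33 genes, all 33 below 0. They were at a median of -0.24 with TPA and -0.037 with DMSO, so that they lay lower than the mitotic genes in each treatment.

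**Figure D3:**
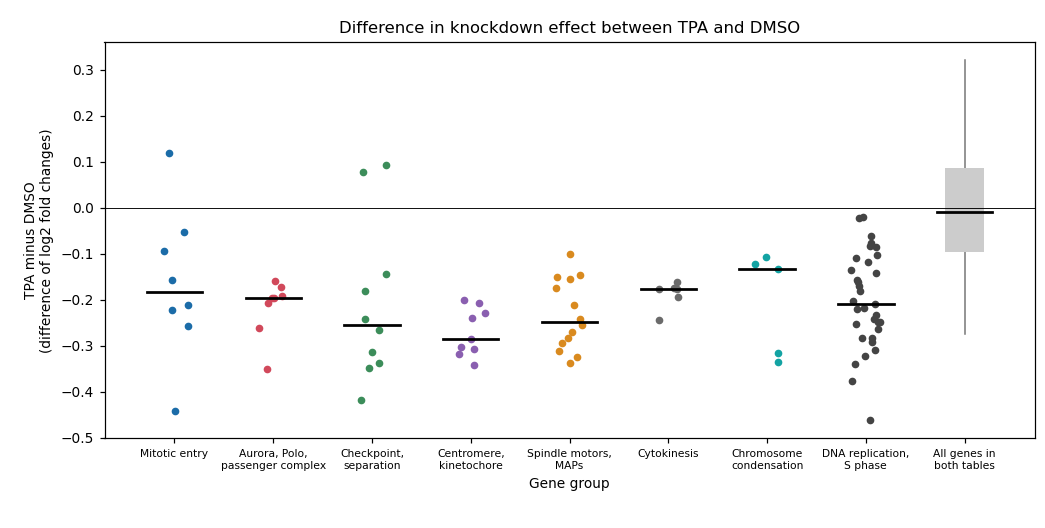
Difference of the knockdown log2 fold changes, TPA minus DMSO (vertical axis), for each mitotic gene by role group, for 33 S phase genes and for all 13007 genes. Points are genes, black lines are medians, the grey box spans the quartiles of all genes and the thin line their 5th to 95th percentiles. Each role group has a median below 0, from -0.29 for the centromere and kinetochore to -0.13 for condensation.

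MuvB binds a promoter element called CHR (cell cycle genes homology region) through its subunit LIN54, and the factor NF-Y binds CCAAT boxes. RefSeq promoter windows, from 250 bases before to 50 after a transcription start on GRCh38.p14, were found for 52 of the 60 genes, 63 windows in all because some genes have several starts. A CHR spelling, TTTGAA, on either strand (TTCAAA on the other), was in 40 of the 63 windows, 63.5%, against 15.2% of all 35116 promoter windows. It was in 1 of 39 windows of DNA replication and S phase genes, of which 24 held CCAAT and 9 the E2F-type letters GGCGGGAA. CCAAT, on either strand (ATTGG on the other), was in 43 windows, 68.3%, against 34.6% of all windows, and at least 1 of each of the 2 motifs was in 30 windows, 47.6%, against 5.9%. The E2F-type spelling GGCGGGAA, on either strand (TTCCCGCC on the other), was in 5 windows, 7.94%, against 3.16% of all windows. Neighbouring motifs share bases in HMMR and MKI67, and a match is a run of letters, not a measured binding site. Other spellings of the CHR were not searched, so a window without TTTGAA is not shown to lack the element.

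**Figure D4:**
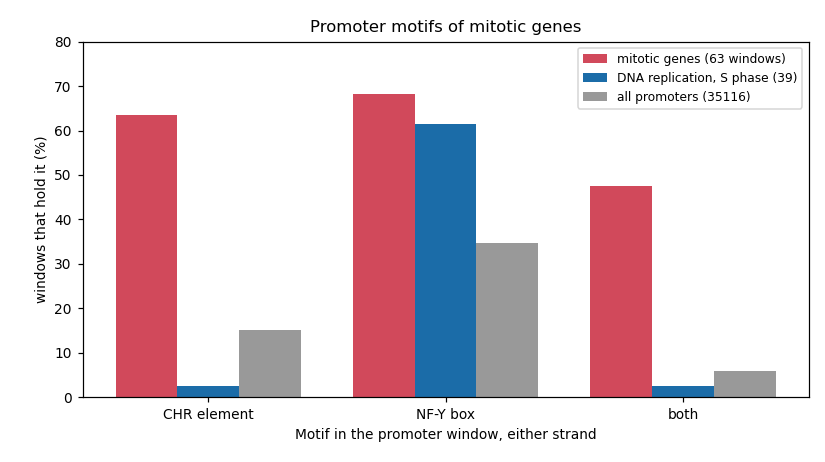
Share of promoter windows (vertical axis, %) that hold TTTGAA (labelled CHR element), CCAAT (labelled NF-Y box) or both, for mitotic genes, DNA replication and S phase genes and all promoters. Other spellings were not searched. The CHR bar of the mitotic genes is at 63.5%, against 2.56% for S phase genes and 15.2% for all promoters.

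The windows of 6 genes with both motifs are shown because they place the elements side by side in genes of different mitotic steps, from 150 bases before to 30 after the start, with the CHR, CCAAT and E2F-type letters of either strand in capitals. They are those of CDK1 (chr10:60778328-60778507, plus strand), the cyclin gene CCNB2 (chr15:59104996-59105175, plus strand), the separation activator CDC20 (chr1:43358831-43359010, plus strand), the kinetochore gene SPC25 (chr2:168890401-168890580, minus strand), the spindle gene HMMR (chr5:163460482-163460661, plus strand) and the proliferation marker MKI67 (chr10:128126394-128126573, minus strand).
CDK1: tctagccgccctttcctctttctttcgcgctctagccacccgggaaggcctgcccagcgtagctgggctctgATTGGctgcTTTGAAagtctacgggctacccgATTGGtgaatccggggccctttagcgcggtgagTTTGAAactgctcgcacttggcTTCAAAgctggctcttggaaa
CCNB2: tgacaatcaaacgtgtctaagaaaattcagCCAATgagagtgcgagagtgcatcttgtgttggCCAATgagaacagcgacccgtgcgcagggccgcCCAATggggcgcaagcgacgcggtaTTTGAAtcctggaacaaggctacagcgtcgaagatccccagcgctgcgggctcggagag
CDC20: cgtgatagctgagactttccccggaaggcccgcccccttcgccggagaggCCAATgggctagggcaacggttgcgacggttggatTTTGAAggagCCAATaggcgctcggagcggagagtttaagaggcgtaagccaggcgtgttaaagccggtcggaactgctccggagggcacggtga
SPC25: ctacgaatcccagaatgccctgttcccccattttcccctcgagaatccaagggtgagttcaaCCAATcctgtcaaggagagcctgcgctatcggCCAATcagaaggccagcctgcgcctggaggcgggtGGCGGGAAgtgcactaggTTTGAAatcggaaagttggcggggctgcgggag
HMMR: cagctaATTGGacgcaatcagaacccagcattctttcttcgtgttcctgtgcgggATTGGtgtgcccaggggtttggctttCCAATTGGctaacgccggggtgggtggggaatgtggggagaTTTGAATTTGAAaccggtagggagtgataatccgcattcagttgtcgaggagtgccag
MKI67: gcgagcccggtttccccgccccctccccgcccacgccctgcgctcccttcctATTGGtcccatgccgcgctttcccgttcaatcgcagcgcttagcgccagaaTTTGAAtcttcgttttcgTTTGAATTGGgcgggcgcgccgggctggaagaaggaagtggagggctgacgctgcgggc

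In CDK1 and SPC25 a pair of CCAAT boxes lies 32 bases apart, counted from first base to first base, and in CCNB2 each of 2 successive gaps is 33 bases. The gaps are 45 bases in CDC20, 49, 26 and 3 in HMMR and 74 in MKI67. INCENP and ECT2, which hold both motifs and are not printed, have gaps of 36 and 43 and of 39 and 56 bases. The gap of 3 in HMMR is the run CCAATTGG read on both strands. The listed genes, a picked set, thus do not share a single spacing. Only genes named here were measured. The CHR lies 29 bases before the start in CCNB2, 3 before it in SPC25, and at 28 and 22 before it in HMMR. It lies 65 bases before the start in CDC20, at 47 and 29 in MKI67, and at 69 and 13 in CDK1. Another match in CDK1 begins at base 10 after the start. The windows of BUB1 (chr2:110678034-110678213, minus strand), NCAPH (chr2:96335616-96335795, plus strand) and CCNB1 (chr5:69167000-69167179, plus strand) are shown beside them because the first pair had the smallest p-values among the mitotic genes for a difference between treatments, and CCNB1 encodes the main mitotic cyclin. CCNB1 holds 2 CCAAT boxes 32 bases apart, BUB1 holds 2 that are 25 bases apart, NCAPH holds 1, and the printed letters of all 3 hold no TTTGAA. Whether they hold a CHR of another spelling was not searched.
BUB1: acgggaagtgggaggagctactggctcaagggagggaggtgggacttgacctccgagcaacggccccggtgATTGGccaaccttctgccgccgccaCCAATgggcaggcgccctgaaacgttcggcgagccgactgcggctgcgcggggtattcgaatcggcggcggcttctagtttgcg
NCAPH: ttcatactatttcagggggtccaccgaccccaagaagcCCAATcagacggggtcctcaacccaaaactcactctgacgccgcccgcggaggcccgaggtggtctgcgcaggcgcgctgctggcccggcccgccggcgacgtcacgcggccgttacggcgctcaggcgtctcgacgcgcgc
CCNB1: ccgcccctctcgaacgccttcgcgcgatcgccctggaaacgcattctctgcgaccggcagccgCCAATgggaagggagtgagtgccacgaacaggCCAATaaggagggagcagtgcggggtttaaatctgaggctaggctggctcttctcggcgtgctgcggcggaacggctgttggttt

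Among the 8 mitotic entry genes the kinase and its cyclins did not share one sign pattern. All their 95% intervals held 0, so no sign is settled, and no contrast between them was tested. CDK1, the kinase that triggers mitosis (ENSG00000170312.15, chr10:60778331-60794852, plus strand, GRCh38), had log2 fold changes of -0.21 with TPA and 0.23 with DMSO in the authors' deposited tables (unadjusted p = 0.405 and 0.414). Its difference of -0.44 was the most negative of the 60 genes, with a 95% interval of -1.19 to 0.30 (unadjusted p = 0.244). CCNA2, the cyclin of S and G2 phase, had -0.20 with TPA and 0.057 with DMSO in the authors' deposited tables. The B-type cyclin genes had opposite signs with TPA, within their implied standard errors of 0.285 for CCNB1 and 0.260 for CCNB2. For CCNB1 the authors' deposited tables give 0.050 with TPA and 0.14 with DMSO, and for CCNB2 -0.20 with TPA and 0.016 with DMSO. MELK, a kinase of proliferating cells, was the lowest of the 8 with TPA: the authors' deposited tables give -0.26 with TPA and -0.038 with DMSO (unadjusted p = 0.265 and 0.880). CDC25B, a phosphatase that activates CDK1, ran the other way from CDK1 in sign, with 0.042 with TPA and -0.076 with DMSO in the authors' deposited tables. The related CDC25C had -0.12 with TPA and 0.038 with DMSO, and FOXM1, the transcription factor that drives many of these genes, -0.059 with TPA and -0.0078 with DMSO, in the authors' deposited tables. Of the 8 genes, 6 were below 0 with TPA and 5 above 0 with DMSO, with medians of -0.16 with TPA and 0.027 with DMSO.

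The Aurora and Polo kinases and the chromosomal passenger complex, which corrects faulty attachments, had medians of -0.11 with TPA and 0.10 with DMSO over 8 genes, 7 below 0 with TPA and 7 above 0 with DMSO. NEK2, a centrosome kinase whose gene is overlapped by 1 annotated gene on its strand, had -0.26 with TPA and -0.063 with DMSO in the authors' deposited tables (unadjusted p = 0.201 and 0.766). AURKB, the kinase of the passenger complex, had -0.26 with TPA and 0.0046 with DMSO in the authors' deposited tables (unadjusted p = 0.294 and 0.986). Its partner BIRC5 (survivin) gave the highest DMSO value of the 60 genes, with -0.10 with TPA and 0.25 with DMSO in the authors' deposited tables. As in 44 of the 60 mitotic genes, all 4 genes of this complex were below 0 with TPA and above 0 with DMSO. Its scaffold INCENP had -0.13 with TPA and 0.062 with DMSO and its subunit CDCA8 (borealin) -0.13 with TPA and 0.071 with DMSO in the authors' deposited tables. AURKA, the spindle pole kinase, had 0.022 with TPA and 0.18 with DMSO, and its activator TPX2 -0.068 with TPA and 0.14 with DMSO, in the authors' deposited tables. PLK1, the Polo kinase, had -0.024 with TPA and 0.15 with DMSO in the authors' deposited tables.

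Spindle checkpoint genes, which delay separation until all chromosomes are attached, were grouped with the ubiquitination and separase genes that end the delay. Over these 10 genes the medians were -0.12 with TPA and 0.14 with DMSO, with 7 below 0 with TPA and 8 above 0 with DMSO. BUB1, a checkpoint kinase (ENSG00000169679.14, chr2:110637698-110678114, minus strand), had -0.18 with TPA and 0.24 with DMSO in the authors' deposited tables (unadjusted p = 0.403 and 0.299). Its difference was -0.42, with a 95% interval of -1.04 to 0.20 and an unadjusted p of 0.184. BUB1B, an inhibitor of the anaphase-promoting complex, had -0.22 with TPA and 0.12 with DMSO in the authors' deposited tables. Both genes were below 0 with TPA and above 0 with DMSO, as were most of the 10. TTK, the kinase that starts the checkpoint signal, had -0.17 with TPA and 0.092 with DMSO, and MAD2L1, a part of the inhibitory complex, -0.093 with TPA and 0.15 with DMSO, in the authors' deposited tables. UBE2C, which supplies ubiquitin to the anaphase-promoting complex, had -0.15 with TPA and 0.17 with DMSO in the authors' deposited tables, with 4 pseudogenes named after it that could share its reads. For CDC20, which activates that complex, the authors' deposited tables give -0.074 with TPA and 0.11 with DMSO, and for CDCA3 -0.18 with TPA and 0.16 with DMSO. BUB3 and the separase pair did not have the signs of most of the 10, though their 95% intervals held 0. BUB3, with 0.043 with TPA and -0.034 with DMSO in the authors' deposited tables, had the smallest implied standard errors of the 60 genes, 0.0542 with TPA and 0.0560 with DMSO. ESPL1, the protease separase, had 0.072 with TPA and -0.021 with DMSO in the authors' deposited tables, the highest TPA value of the 60, and its inhibitor PTTG1 (securin) was above 0 in both treatments, with 0.071 with TPA and 0.21 with DMSO.

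Centromere and kinetochore genes had the lowest median of the 7 role groups with TPA, -0.22 over 9 genes, all 9 below 0. NDC80, the microtubule-binding subunit of the outer kinetochore (ENSG00000080986.12, chr18:2571511-2616635, plus strand), had -0.32 with TPA and -0.094 with DMSO in the authors' deposited tables (unadjusted p = 0.0623 and 0.598), and its 95% interval with TPA ran from -0.66 to 0.017. The other 3 subunits of the NDC80 complex lay near it with TPA and close to 0 with DMSO. In the authors' deposited tables SPC24 had -0.31 with TPA and 0.0071 with DMSO, SPC25 had -0.27 with TPA and 0.036 with DMSO and NUF2 had -0.22 with TPA and 0.062 with DMSO. SKA3 and SKA1 couple kinetochores to shortening microtubules, and the authors' deposited tables give -0.26 with TPA and 0.078 with DMSO for SKA3 and -0.16 with TPA and 0.046 with DMSO for SKA1. CENPA, the histone H3 variant of centromeres, had -0.16 with TPA and 0.079 with DMSO in the authors' deposited tables. CENPF, a large kinetochore protein, had -0.22 with TPA and 0.080 with DMSO and the motor gene CENPE -0.071 with TPA and 0.13 with DMSO in the authors' deposited tables. With DMSO the 9 genes ran between -0.094 and 0.13, with a median of 0.062.

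All 14 genes of spindle motors and microtubule-associated proteins were below 0 with TPA, with a median of -0.15, and 11 of the 14 were above 0 with DMSO, with a median of 0.073. KIF15, a motor that helps to hold the bipolar spindle (ENSG00000163808.16, chr3:44761717-44873376, plus strand), was the lowest of the 60 genes with TPA. It had -0.45 with TPA and -0.11 with DMSO in the authors' deposited tables (unadjusted p = 0.0569 and 0.656), and 2 annotated genes overlap it on the same strand. The TPA value is 0.733 times the NTC level, with a 95% interval of 0.532 to 1.01. KIF11, the main motor of spindle bipolarity, had -0.20 with TPA and 0.057 with DMSO in the authors' deposited tables. The 2 bipolarity motors shared a sign with TPA and not with DMSO. Their DMSO values lay within implied standard errors of 0.246 for KIF11 and 0.253 for KIF15. GTSE1, a microtubule-binding protein of G2 and mitosis, had -0.33 with TPA and -0.017 with DMSO in the authors' deposited tables (unadjusted p = 0.244 and 0.957). KIF14, a motor of late mitosis, had -0.24 with TPA and -0.066 with DMSO in the authors' deposited tables. TACC3, which crosslinks spindle microtubules, had -0.21 with TPA and 0.12 with DMSO in the authors' deposited tables, a difference of -0.32 (unadjusted p = 0.303). The other motors KIF18A, KIF2C and KIF4A and the microtubule-associated genes NUSAP1, ASPM, CKAP2 and CKAP2L ran between -0.18 and -0.012 with TPA and between 0.012 and 0.12 with DMSO in the authors' deposited tables. DLGAP5 and HMMR, both spindle assembly proteins, were the highest of the 14 with DMSO, and the authors' deposited tables give -0.069 with TPA and 0.20 with DMSO for DLGAP5 and -0.059 with TPA and 0.18 with DMSO for HMMR.

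Cytokinesis genes were 6 of 6 below 0 with TPA, between -0.18 and -0.034, and 6 of 6 above 0 with DMSO, between 0.051 and 0.14. RACGAP1, a subunit of the central spindle complex, had -0.034 with TPA and 0.14 with DMSO in the authors' deposited tables (unadjusted p = 0.852 and 0.465). Its motor partner KIF23 had -0.064 with TPA and 0.11 with DMSO in the authors' deposited tables. ANLN, the ring scaffold anillin, had the lowest TPA value of the 6, with -0.18 with TPA and 0.066 with DMSO in the authors' deposited tables (unadjusted p = 0.509 and 0.828). PRC1, which bundles midzone microtubules, had -0.045 with TPA and 0.13 with DMSO, and the motor gene KIF20A -0.10 with TPA and 0.093 with DMSO, in the authors' deposited tables. ECT2, the activator of the ring's GTPase, had -0.11 with TPA and 0.051 with DMSO in the authors' deposited tables.

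Genes of chromosome condensation had the lowest DMSO median of the role groups: it was -0.018, with 3 of 5 below 0, beside -0.20 with TPA, 5 of 5 below 0. NCAPG, a subunit of condensin I, had -0.33 with TPA and -0.018 with DMSO in the authors' deposited tables (unadjusted p = 0.116 and 0.935). NCAPH, another subunit (ENSG00000121152.9, chr2:96335787-96373845, plus strand), had -0.20 with TPA and 0.13 with DMSO in the authors' deposited tables (unadjusted p = 0.191 and 0.402). These condensin values differed in sign with DMSO. Each lay within its implied standard error, 0.224 for NCAPG and 0.158 for NCAPH, so the signs are not settled. SMC4, the condensin ATPase, had -0.028 with TPA and 0.078 with DMSO in the authors' deposited tables, with 2 annotated genes overlapping it on its strand. TOP2A, the topoisomerase that untangles chromatids, and MKI67, which coats mitotic chromosomes, were below 0 in both treatments, and the authors' deposited tables give -0.25 with TPA and -0.13 with DMSO for TOP2A and -0.20 with TPA and -0.070 with DMSO for MKI67.

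The spread among the mitotic genes was smaller than the error of a typical one. Their log2 fold changes had an SD across genes of 0.110 with TPA and 0.0892 with DMSO, while the median implied standard error was 0.229 with TPA and 0.245 with DMSO. Over all genes of both tables the SD was 0.178 with TPA and 0.211 with DMSO, and the median implied standard error 0.167 and 0.172. These are errors of single fold changes, not of a difference between genes that share libraries. The order of the mitotic genes within a treatment therefore cannot be judged from them and was not tested. An implied standard error above 0.2 was found for 46 of 60 with TPA, against 35.1% of genes, and for 50 of 60 with DMSO, against 38.2%. S phase genes had median errors of 0.235 and 0.252. Expression levels are not in these tables, and their part in the errors was not tested. Across the 60 genes, which share their libraries, fold changes with TPA and DMSO correlated with Pearson r = 0.42 and Spearman rho = 0.42, beside r = 0.38 and rho = 0.40 over all 13007 genes.

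**Figure D5:**
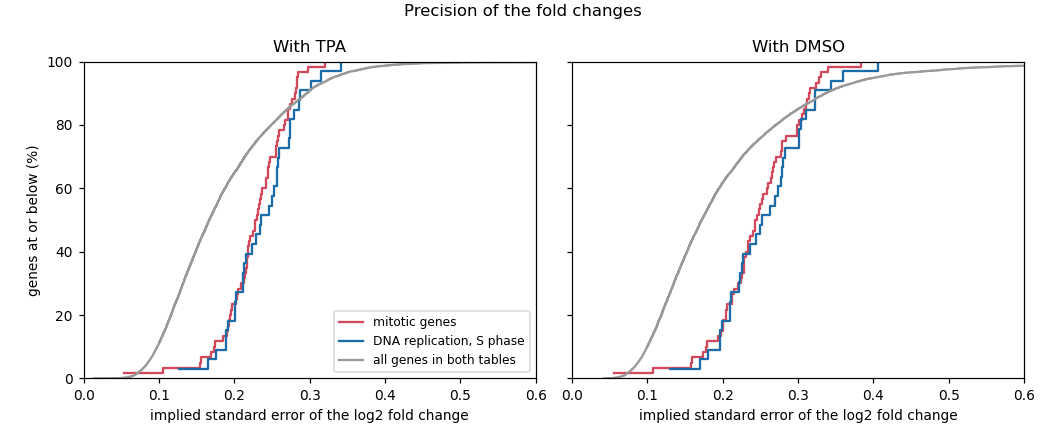
Cumulative share of genes (vertical axis, %) by implied standard error of the log2 fold change (horizontal axis, cut at 0.6), with TPA at left and DMSO at right. The curves of mitotic and S phase genes run together, right of that of all genes, with medians of 0.229 for mitotic and 0.167 for all genes with TPA.

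The promoter motifs split the matched genes by small amounts, and no test was made. The 37 matched genes with TTTGAA in a window had medians of -0.17 with TPA and 0.066 with DMSO, and the 15 without it -0.18 and 0.089. The median difference was -0.23 with it and -0.20 without it. The 38 genes with CCAAT had medians of -0.15 with TPA and 0.075 with DMSO, and the 14 without it -0.22 and 0.064, and the median difference was -0.20 with it and -0.24 without it. The 28 genes with both motifs in 1 window had medians of -0.13 with TPA and 0.075 with DMSO, and the other 24 had -0.20 and 0.064, and the median difference was again -0.20 with both and -0.24 without.

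Of 111 further genes of the mitotic machinery, none passed with TPA, where 0.113% of all genes did. None of the 109 tested passed with DMSO, where 0.108% of all genes did. Their medians were -0.11 with TPA and 0.026 with DMSO. Below 0 with TPA were 88, against 47.0% of all genes, and above 0 with DMSO 67, against 52.3%. Of the 109 differences 97 were below 0, against 52.5% of all genes. Of 28 further kinetochore genes 25 were below 0 with TPA and 18 above 0 with DMSO, with medians of -0.12 with TPA and 0.030 with DMSO. The smallest p-values among them were those of CENPQ, CENPM and CENPO, subunits of the inner kinetochore, at -0.34, -0.29 and -0.26 with TPA in the authors' deposited table. Of 22 other spindle and G2/M genes 20 were below 0 with TPA, and PIMREG was not, with 0.48 in the authors' deposited table (unadjusted p = 0.0871); it is not in the DMSO table. KIF18B, a motor that shortens microtubules, had -0.37 with TPA and -0.12 with DMSO, and PBK, a mitotic kinase, -0.40 with TPA and -0.21 with DMSO, in the authors' deposited tables.

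Cohesin and the remaining condensin genes had medians of -0.14 with TPA and -0.010 with DMSO over 16 genes. SMC1A, a cohesin ATPase, had -0.20 with TPA and -0.22 with DMSO in the authors' deposited tables (unadjusted p = 0.103 and 0.0717). SGO1, the protector of centromeric cohesion, had -0.39 with TPA and -0.12 with DMSO, and the cohesin regulator PDS5A -0.12 with TPA and -0.065 with DMSO, in the authors' deposited tables. Other mitotic entry regulators, 13 in number, had medians of -0.075 with TPA and 0.064 with DMSO. BORA, an activator of Aurora A, had -0.26 with TPA and -0.0062 with DMSO in the authors' deposited tables (unadjusted p = 0.0720 and 0.966). WEE1, the inhibitory kinase of CDK1, had -0.23 with TPA and -0.073 with DMSO, and MNAT1, an assembly factor of the CDK-activating kinase, -0.00060 with TPA and 0.15 with DMSO, in the authors' deposited tables.

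Subunits and regulators of the anaphase-promoting complex had medians of 0.027 with TPA and 0.059 with DMSO over 18 genes. With TPA 7 of the 18 were below 0 and 11 above, where 47.0% of all genes were below. With DMSO 13 of the 18 were above 0, against 52.3% of all genes. FBXO5 (EMI1), its inhibitor, had -0.34 with TPA and 0.039 with DMSO in the authors' deposited tables. The subunit CDC23 had -0.19 with TPA and -0.013 with DMSO, and ANAPC5 0.031 with TPA and 0.079 with DMSO, in the authors' deposited tables.

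The MuvB core, B-MYB and pocket proteins, grouped with E2F and E2F-partner genes, had a median of -0.17 with TPA, 13 of 14 below 0, and -0.017 with DMSO, 9 of 13 below 0. LIN54, the CHR-binding subunit, had -0.26 with TPA and -0.20 with DMSO in the authors' deposited tables (unadjusted p = 0.0412 and 0.122) and did not pass after adjustment. It was the single one of the 111 further genes, 0.901%, under an unadjusted p of 0.05 with TPA, below the 3.99% of all genes, and 0 of 109 were with DMSO, where 3.04% of all genes were. The core subunit LIN9 had -0.17 with TPA and 0.046 with DMSO, and E2F8, a repressor among the E2F factors, -0.50 with TPA and -0.18 with DMSO, in the authors' deposited tables.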

How the data were processed

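The 24 libraries were made from poly(A) RNA with strand-marked cDNA and molecular identifiers, per the labels' protocols; whether strand and identifiers were used in counting is not stated. Tools named in the submitters' processing notes, without roles, are RSEM 1.3.0, STAR 2.5.3a and DESeq2 1.18.1, with GRCh38. For each treatment the authors deposited a table of log2 fold changes, p-values and adjusted p-values, per the file headers; their model is not stated. With TPA 34024 genes had a p-value and 19417 an adjusted one, and with DMSO 13007 had both. All identifiers matched GENCODE 29.

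A z-value was taken from each p-value and sign, and the implied standard error is the fold change over z. TPA minus DMSO was divided by the combined standard error and adjusted by Benjamini-Hochberg over 13007 genes, taking the errors of the tables, which share no library, as independent; this was assumed and not tested. The calculation was tested on simulated data with independent errors, whose z-values have the standard normal spread by construction. The narrower spread of the real z-values, a robust SD of 0.581, was not simulated. A call is an adjusted p under 0.05. The planned count tests could not be run because no counts are in these tables. The series calls its replicates independent, without saying what was separate.

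The 60 genes and all lists were chosen with earlier results of these data known. Genes given in full are, per role group, those with the 2 smallest p-values in either table and the smallest p of the difference, and per further list at most the 3 smallest; the rest of the 60 are given in brief. Promoters shown by rule are those of the smallest p of the difference (NCAPH, BUB1, CDK1) and, for their place in the pathway, CDK1 and CCNB1; the motif search and the other promoters, picked for holding the motifs, came after the values were seen. Of genes with several starts, the start with the most motif bases is shown. Among the 60 genes 33 overlap another annotated gene, 11 of them on the same strand, and 13 have a pseudogene named after them. No promoter window was matched for AURKA, BIRC5, BUB3, FOXM1, RACGAP1, TPX2, TTK and UBE2C. Software was pandas 2.3.3, scipy 1.17.1 and numpy 2.4.6 in Python 3.11.15.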

Additional observations from a re-analysis of the deposited data

How the results depend on the processing

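No mitotic gene was called under any alternative run. They were an unadjusted p under 0.05, an adjusted p under 0.1, a minimum fold, rescaled p-values and other sets of genes to adjust over. For the difference, z-values, centring and scaling were also used. Some of these runs could not have called a mitotic gene. A minimum fold only narrows the main call, which holds 0 of the 60. The smallest unadjusted p of the 60 was 0.0569 with TPA and 0.298 with DMSO. An adjusted p is never below its unadjusted p, so adjusting over another set of genes could not bring one under 0.05. Over all genes the calls moved from 22 to 113 with TPA and from 14 to 109 with DMSO when p-values were rescaled by their narrow spread (robust SD of z 0.840 and 0.754); the smallest adjusted p of a mitotic gene was then 0.519 and 0.882. For the difference, rescaling gave 23 of all genes in place of 0 and none of the 60. An adjusted p under 0.1 gave 39 genes with TPA, a minimum log2 fold change of 1 gave 14 with TPA and 3 with DMSO, and an adjustment over genes in both tables gave 8 with TPA. The median of the 60 genes stayed between -0.17 and -0.13 with TPA and between 0.064 and 0.089 with DMSO under another centring, the mean, or leaving out each role group; centring on genes in both tables was chosen after seeing the data. At an unadjusted p under 0.05, 833 of all genes with TPA and 395 with DMSO were called, and 57 for the difference. No paired analysis was possible because values per library were lacking. Left-out replicates, other normalizations and other tools were not run for the same reason, and what depth limits could not be assessed.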

Other observations

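Genes of the G1 phase, which act before the mitotic program, gave no call in either treatment. Over all genes 0.113% were called with TPA and 0.108% with DMSO. Of 18 G1 cyclins, kinases, inhibitors and E2F genes tested with TPA, 16 were below 0, against 47.0% of all genes, with a median of -0.12. Of 16 tested with DMSO, 10 were below 0, against 6203 of 13007 genes, with a median of -0.074. E2F3, an activator of S phase genes, had -0.22 with TPA and -0.10 with DMSO in the authors' deposited tables (unadjusted p = 0.0291 and 0.354). CDK6, the kinase partner of D-type cyclins, had -0.76 with TPA and -0.34 with DMSO in the authors' deposited tables (unadjusted p = 0.0485 and 0.545). E2F3 and CDK6 were the 2 of 18 under an unadjusted p of 0.05 with TPA, against 3.99% of all genes. None of the 16 was with DMSO, against 3.04%. CDKN1C, an inhibitor of cyclin-dependent kinases, had -0.55 with TPA in the authors' deposited table and is not in the DMSO table. The S phase genes with the smallest p-values were TYMS, GINS3 and MCM5. In the authors' deposited tables TYMS had -0.42 with TPA and -0.11 with DMSO, GINS3 had -0.34 with TPA and -0.13 with DMSO and MCM5 had -0.31 with TPA and -0.22 with DMSO.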
